A study of Drosophila melanogaster with 4 samples.

Results

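Odorant-binding protein (Obp) genes were examined on cDNA arrays of adult male Drosophila melanogaster heads after feeding with gabapentin. The members are the cDNA clones whose only gene symbol in the platform annotation starts with Obp and which have a deposited value on at least 3 of the 4 arrays. They number 6 clones of 4 genes, out of 32 clones of 19 Obp genes printed on the array, and out of 854 clones of any kind with a value on 3 or 4 arrays. They were thus chosen by the presence of deposited values, and the numbers of arrays with a value are given as a description. The rule set no cut on the ratio, but presence was not independent of it. Of the values of all clones on 1 or 2 arrays, 60.7% lay below the array median, against 36.9% for clones on 3 or 4. Flies were unmated Oregon-R wild type males, 10 to 11 days old, kept for 3 days in vials of 30 on food with gabapentin at 16 mg/ml or on normal food. Gabapentin is used against seizures and neuropathic pain, and its known binding partner in mammals is alpha2delta, an auxiliary calcium channel subunit. Each array compared a gabapentin head pool with a normal food head pool, so that the 4 arrays are 4 biological replicates of 1 contrast. On arrays 1 and 2 the dye of the gabapentin pool was Cy5, and on arrays 3 and 4 the dyes were swapped.

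Odorant-binding proteins are small secreted proteins that bind hydrophobic molecules. They are made largely by the support cells around chemosensory neurons and released into the fluid of the sensilla on the antennae, maxillary palps and labellum, where they are known as abundant carriers of odorants and tastants. Some members act elsewhere, in glia, fat body, hygrosensory organs or the male reproductive tract. The RNA came from whole heads collected on sieves. The sources used here do not say whether antennae stayed attached. In a head pool, fewer cells of a type and less RNA per cell cannot be told apart.

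All values below are deposited log2 ratios, each the average of a clone's duplicate spots, minus the median of all clones on the same array, unless stated otherwise. That median was 1.14, 0.80, 0.52 and 0.78 on arrays 1 to 4, and 1880, 2170, 1376 and 668 clones had a value. The spread of the clones was widest on array 3, with a median absolute deviation of 0.33 log2 units, against 0.20 to 0.22 on arrays 1, 2 and 4. It is not stated if ratios on arrays 3 and 4 are Cy5 over Cy3 or had been turned to gabapentin over normal food. Both readings were therefore computed, one with the sign of arrays 3 and 4 turned and one with all columns as deposited, and no direction is settled for a mean over both dye orientations. A positive value on arrays 1 and 2 means more RNA in gabapentin heads, relative to the median clone, provided that the deposited ratio has Cy5 on top.

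Obp transcripts had deposited values more often than most clones. Of the 32 Obp clones, 6 (18.8%) had a value on 3 or 4 arrays, against 6.18% of all 13824 clones, and 13 (40.6%) had none, against 74.2% of all clones. A value required that a spot passed the authors' filter, so this is a statement on signal and spot quality, and a missing value does not mean that a gene is not expressed. Array 1 held values of 13 Obp clones, array 2 of 12, array 3 of 6 and array 4 of 3. The measured genes were Obp19d, Obp56d, Obp56g and Obp57c. In the RefSeq annotation (Release 6) Obp56d and Obp56g lie in the same gene cluster, with 4 protein-coding genes between them. Obp19d follows Obp19c directly in another cluster.

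**Figure D1:**
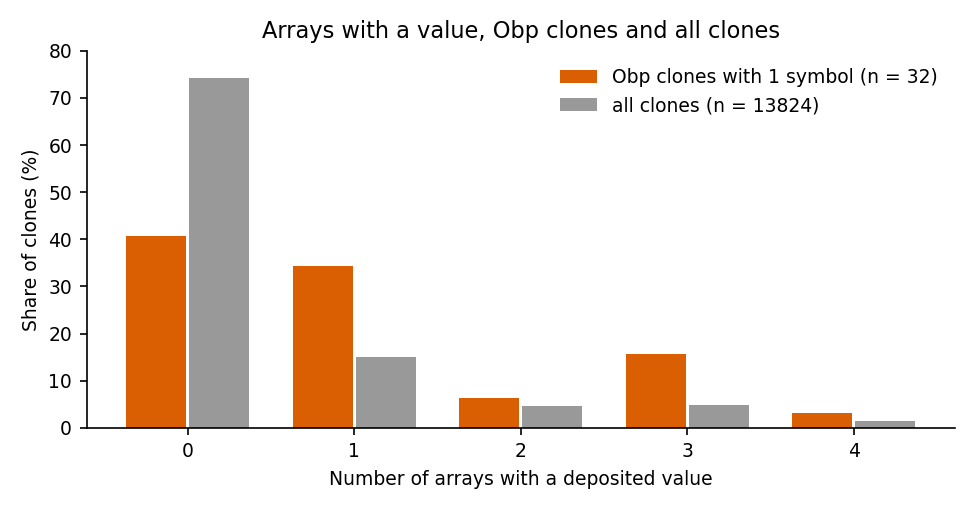
Share of clones (%) by the number of arrays, 0 to 4, on which they had a deposited value, for the 32 Obp clones with 1 gene symbol (orange) and all 13824 clones (grey). The Obp clones lie lower at 0 arrays (40.6% against 74.2%) and higher at 3 or 4 arrays (18.8% against 6.18%).

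None of the 6 Obp clones was called different between gabapentin and normal food heads in either reading. With arrays 3 and 4 turned, the clone means ran from -0.32 to 0.23 log2 units, 2 of 6 lay above 0, and their median was -0.12, against a median within 0.01 of 0 over all 854 clones tested. No Obp clone had an adjusted p under 0.05 (limma, Benjamini-Hochberg over 854 clones), where 0% of all clones were called higher and 0% lower. Before adjustment, p was under 0.05 for 0 Obp clones, where 0.703% of the clones tested lay higher and 1.52% lay lower. With columns as deposited, the Obp means ran from -0.81 to 0.46, 4 of 6 lay above 0 (66.7%, the same share as among all clones tested), and their median was 0.36 against 0.09. Again 0 Obp clones passed in limma, with 0% of all clones called in either direction. At an unadjusted p under 0.05, 2 Obp clones lay higher and 1 lower, where 12.5% of all clones lay higher and 2.69% lower. The one-class SAM statistic, the method named for the study, called 0 Obp clones in either reading, and 1 and 2 of the 854 clones in the turned and the deposited reading. Without centring, limma called 5 of the 6 Obp clones higher in the deposited reading, where 97.5% of all clones were called higher.

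**Figure D2:**
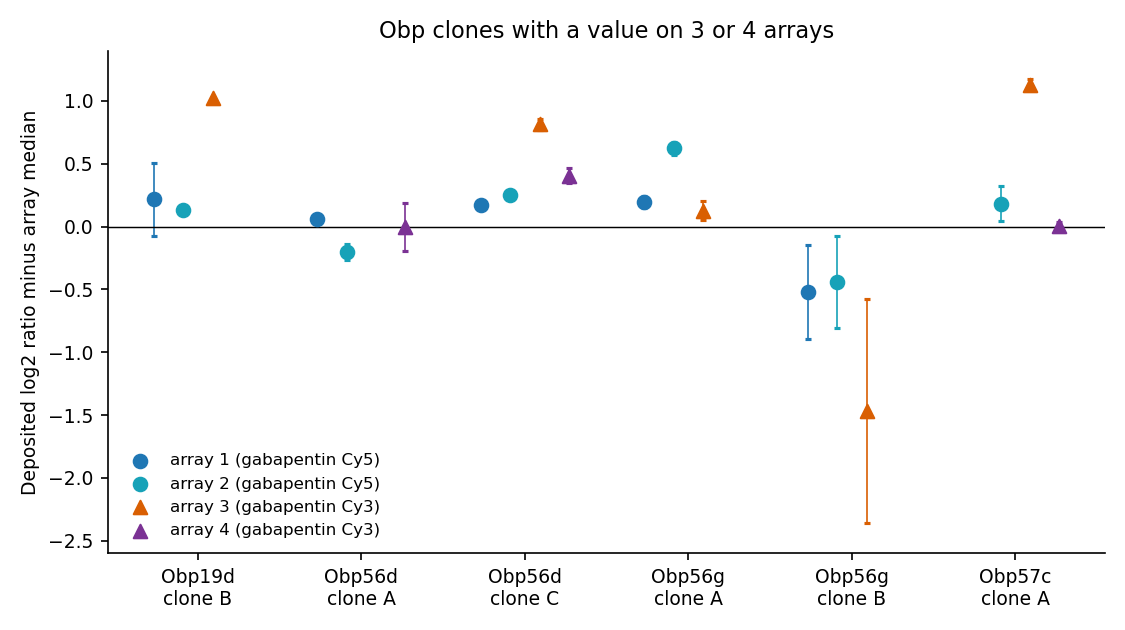
Deposited log2 ratio minus the array median (y axis) for the 6 Obp clones, by array. Large symbols are clone values, circles for gabapentin in Cy5 and triangles for gabapentin in Cy3, and the dashes joined by a line are the duplicate spots. Array 3 holds the highest value of Obp19d clone B, Obp56d clone C and Obp57c clone A, and the lowest of Obp56g clone B.

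Obp56d, a member with high expression in antennae and taste organs, has 3 clones on the array. The clone measured on all 4 arrays (spots 10083 and 10084, called clone C here) had 0.17, 0.25, 0.82 and 0.41 on arrays 1 to 4. It lay above the median on every array as deposited, and highest on array 3, where 96.6% of all clones were lower. With arrays 3 and 4 turned, the clone averaged -0.20 ± 0.19 (SE, n = 4 arrays, limma adjusted p = 0.999). The 95% interval of that reading spans gabapentin to normal food ratios of 0.66 to 1.15. As deposited, the mean was 0.41 ± 0.14 (SE, n = 4, limma adjusted p = 0.214), a 1.33-fold difference from the median clone. Fitted over the 186 clones on 4 arrays, the part common to all deposited columns was 0.41 ± 0.14 (limma adjusted p = 0.101), and the part opposite between dye orientations was -0.20 ± 0.14 (limma adjusted p = 0.967). Without replicate 3, the turned mean was 0.00 (to 2 decimals), so its sign rests on that array.

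The second Obp56d clone of the rule (spots 415 and 416, clone A) had 0.06 on array 1, -0.20 on array 2 and 0.00 (to 2 decimals) on array 4. It stayed close to the array medians, with between 29.9% and 58.4% of all clones below it. It averaged -0.04 ± 0.18 with arrays turned and -0.05 ± 0.14 as deposited (SE, n = 3, limma adjusted p = 0.999 and 0.910). One more clone (spots 833 and 834, clone B) had a value on array 1 alone, -0.68, where 6.81% of all clones were lower. On array 1, which the 3 clones share, clone A exceeded clone B by 0.74 log2 units and clone B lay -0.84 from clone C. Clone A lay -0.10 from clone C there, a smaller gap than the median difference between duplicate spots on that array. That median compares single spots, whereas the gap compares averages of duplicate spots, so the measures are unlike. On array 1, clone B alone stood apart, from duplicate spots at -0.97 and -0.38. That spot difference was larger than in 87.1% of clones on the array. On arrays 2 and 4, clone A lay -0.45 and -0.41 from clone C.

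Obp56g, known from the labellum and the male reproductive tract, has 2 clones that lay on opposite sides of the median on every array they share. The first (spots 20429 and 20430, clone A) had 0.19, 0.62 and 0.13 on arrays 1 to 3, and 97.9% of all clones were lower on array 2. The second (spots 25027 and 25028, clone B) had -0.52, -0.44 and -1.47 on the same arrays, where 10.0%, 14.7% and 3.49% of all clones were lower. The clones do not overlap on any array, so that their difference has the same sign on all 3. A difference of constant sign was also found between the clones of Tnpo, Dp1, anchor, Obp56d, MED26, UGP and Oda. In the rest of the 20 genes compared below it was not. Clone A exceeded clone B by 0.72, 1.06 and 1.59 log2 units on arrays 1, 2 and 3, a mean of 1.12 ± 0.44 (SD, n = 3 arrays) or 2.18-fold. A sign-flip permutation test over 3 arrays gave an exact two-sided p of 0.25, the smallest that 3 arrays allow.

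As deposited, the mean of Obp56g clone A was 0.31 ± 0.15 and that of clone B -0.81 ± 0.20 (SE, n = 3 each, limma adjusted p = 0.368 and 0.203). With arrays turned, the means were 0.23 ± 0.19 and 0.17 ± 0.31, each with a limma adjusted p of 0.999. Clone B passed in the deposited reading without replicate 1, at -0.95 (limma adjusted p = 0.00386), and with arrays centred on the tested clones alone, at -0.92 (limma adjusted p = 0.0480). Among all clones, 13 were called without replicate 1 and 3 with that centring. Without replicate 1, the mean of clone B rests on -0.44 from array 2 and -1.47 from array 3, where its first spot had -2.36. Over its leave-one-out fits as deposited, the mean of clone B ran from -0.995 to -0.48 and its limma adjusted p from 0.00386 to 0.333. With arrays turned, its mean changed sign without replicate 3, to -0.48 (limma adjusted p = 0.469).

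The low value of Obp56g clone B came largely from 1 of its duplicate spots. The first spot had -0.89, -0.81 and -2.36 on arrays 1 to 3, and the second -0.15, -0.07 and -0.58. The first lay below the second on every array, by 0.74, 0.73 and 1.78 log2 units. The median size of such a difference over all clones was 0.19, 0.15 and 0.15 on these arrays. Averaged over arrays, the size of the spot difference was 1.09 for clone B, larger than in 99.9% of the 853 clones with both spots on 3 or 4 arrays, whose median was 0.15. In the other 5 Obp clones it was 0.08 to 0.20. Clone B was the 1 clone of these 853 whose spots differed by at least 0.733 with the same sign on every array, a bound taken from its own values and given with no test. From the second spot alone, the mean of clone B as deposited was -0.27 ± 0.16 (SE, n = 3, limma adjusted p = 0.469), and from the first alone -1.36 ± 0.27 (limma adjusted p = 0.174). The gap between the Obp56g clones was 0.59 log2 units from second spots and 1.66 log2 units from first spots (exact sign-flip permutation p = 0.25 for both, n = 3 arrays).

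**Figure D3:**
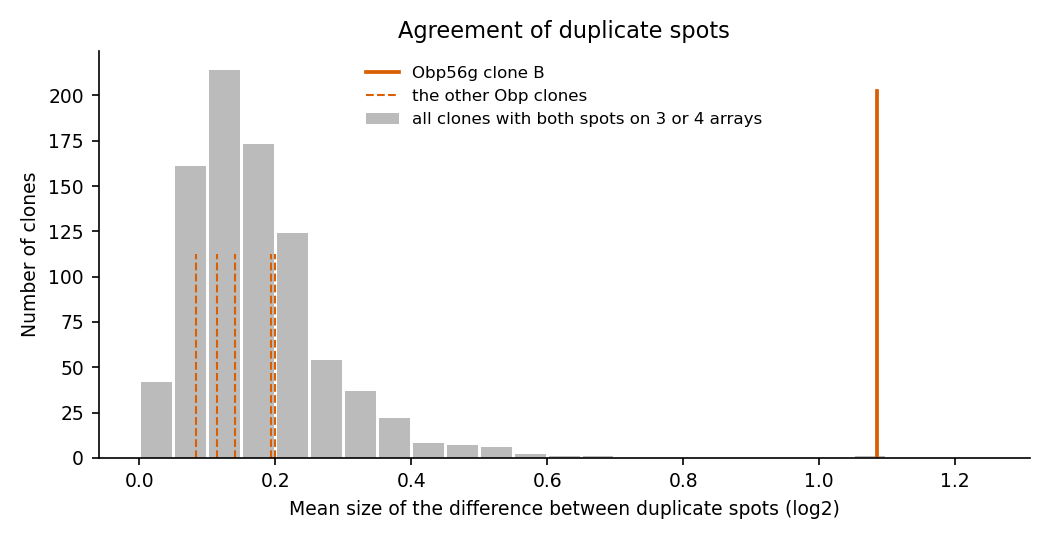
Number of clones (y axis) by the mean size of the difference between duplicate spots in log2 units (x axis), for the 853 clones with both spots on 3 or 4 arrays (grey). The solid line is Obp56g clone B at 1.09, far right of the bulk of clones, and the dashed lines are the other 5 Obp clones at 0.08 to 0.20.

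Obp19d, also known as PBPRP2, is a pheromone-binding protein relative of antennae and taste organs. The clone of the rule (spots 24771 and 24772, clone B) had 0.22, 0.13 and 1.02 on arrays 1 to 3. It lay above the median on arrays 1 and 2, where 77.2% and 67.2% of all clones were lower. The value was highest on array 3, where 98.8% were lower. Its duplicate spots on array 1 were -0.08 and 0.51, on either side of the median. As deposited it averaged 0.46 ± 0.19 (SE, n = 3, limma adjusted p = 0.281), and with arrays turned -0.22 ± 0.23 (limma adjusted p = 0.999). Without replicate 3 the mean was 0.17 in both readings, so array 3 carried most of the deposited mean and set the sign of the turned one. The other Obp19d clone (spots 19993 and 19994, clone A) had a value on array 2 alone. That value exceeded clone B there by 0.06 log2 units, less than the median difference between duplicate spots. Here too the gap is between averages of duplicate spots and the median between single spots.

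Obp57c belongs to another cluster of Obp genes. The clone of the rule (spots 5021 and 5022, clone A) had 0.18, 1.13 and 0.00 (to 2 decimals) on arrays 2, 3 and 4. As for Obp19d, the array 3 value stood apart, with 99.4% of all clones lower. Over these arrays it averaged 0.44 ± 0.21 as deposited (SE, n = 3, limma adjusted p = 0.350) and -0.32 ± 0.24 with arrays turned (limma adjusted p = 0.999). Without replicate 3 the mean was 0.09 in both readings. A second clone (spots 11201 and 11202, clone B) had -0.02 on array 1 and 0.30 on array 2, and lay 0.12 log2 units from clone A on array 2.

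Array 3 thus set the largest values among the 6 clones. It held 5 Obp clones of the rule, 4 above the median and 1 below, with a median of 0.82 log2 units, against 0.17 on array 1, 0.16 on array 2 and 0.00 (to 2 decimals) on array 4. The wider spread of all clones on array 3 moves with this. So does the position of its median, which includes the clones with a value on 1 or 2 arrays. Of the array 3 values of such clones, 70.8% fell below that median. Array 1 had 60.8% of them below its median, array 2 had 56.9% and array 4 had 58.4%. Values of clones of the rule are thus raised relative to that median. The part of the spread and of the median in the result was not tested. With all arrays scaled to the same median absolute deviation, the deposited means of Obp19d clone B, Obp57c clone A and Obp56d clone C were 0.38, 0.34 and 0.37, and 0 Obp clones passed (limma).

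**Figure D4:**
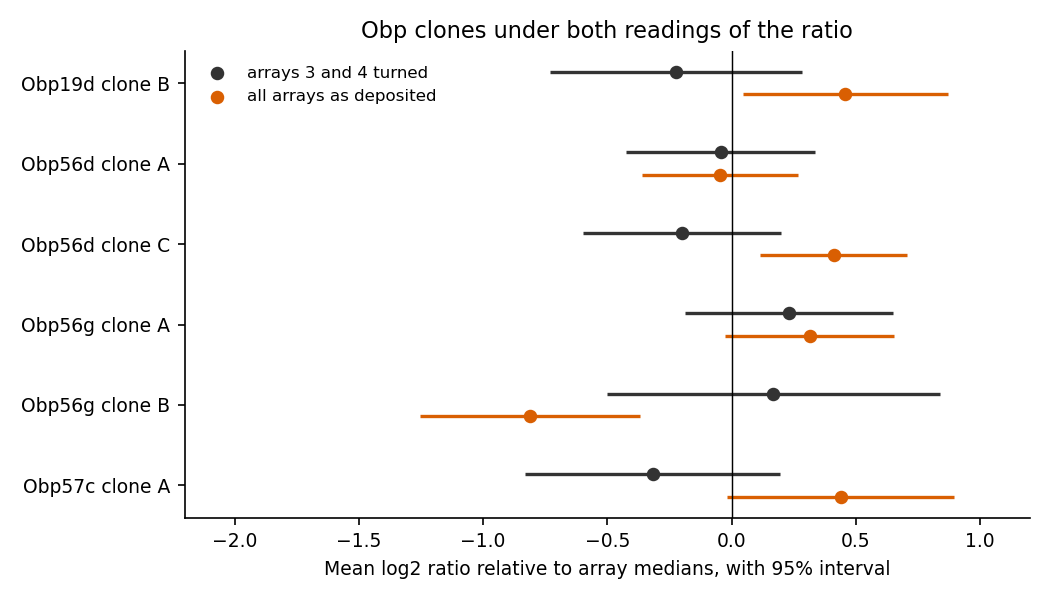
Mean log2 ratio relative to the array medians (x axis) of each Obp clone, with the 95% interval of limma's moderated test, for arrays 3 and 4 turned (black) and all arrays as deposited (orange). In the turned reading every interval includes 0. As deposited, the intervals of Obp19d clone B, Obp56d clone C and Obp56g clone B do not, and no clone had an adjusted p under 0.05 over 854 clones.

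Arrays 1 and 2 run the same way under either reading, and 7 Obp clones had values on both. Their means ran from -0.48 to 0.41 log2 units, with 4 of 7 above 0. Obp56g clone A lay at 0.41 ± 0.18 and clone B at -0.48 ± 0.18 (SE, n = 2 arrays, limma adjusted p = 0.410 and 0.240 over 1096 clones). Obp56d clone C stood at 0.21, Obp19d clone B at 0.17, Obp57c clone B at 0.14 and Obp56d clone A at -0.07, with limma adjusted p from 0.804 to 0.950. Obp99c, measured on these arrays only, had -0.20 and -0.48, a mean of -0.34 ± 0.18 (limma adjusted p = 0.542). No Obp clone was called, where 0.639% of all clones were called higher and 1.19% lower. Before adjustment, p was under 0.05 for 1 Obp clone on the higher and 1 on the lower side, both of Obp56g, where 5.93% and 4.47% of all clones were. On arrays 3 and 4, the deposited values of the 2 Obp clones with both values averaged 0.61 ± 0.27 (Obp56d clone C) and 0.57 ± 0.27 (Obp57c clone A, SE moderated over all clones, n = 2 arrays, limma adjusted p = 0.289 and 0.318 over 235 clones). Both lay higher at an unadjusted p under 0.05, as did 6.81% of all clones, whereas 6.38% were lower. Neither was called, where 0.426% of all clones were called higher and 2.98% lower. Arrays of 1 orientation share the dye, so that the drug and the dye cannot be told apart in them.

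Among genes with 2 clones on 3 or 4 arrays that share at least 2 arrays, the mean difference between clones was largest for Obp56g. Over these 20 genes, the median size of that difference was 0.17 log2 units. It was 0.15 over the 18 genes outside the Obp family. Obp56g ranked 1 of 20 at 1.12, followed by vig at 0.76, Tnpo at 0.64 and Dp1 at 0.63. That rank rests on the mean of both spots. From second spots alone the Obp56g gap was 0.59, less than these values of vig, Tnpo and Dp1. Single spots of the other genes were not compared. Obp56d, with clone A -0.32 ± 0.19 from clone C (SD, n = 3 arrays, exact sign-flip permutation p = 0.25), ranked 6. In 2 Obp genes whose clones share 1 array only, the gap was larger: clone A lay -2.35 log2 units from clone B for Obp59a on array 2, and 1.796 above it for Obp99d on array 1. Whether the clones cover different transcripts or stretches of a gene was not examined.

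**Figure D5:**
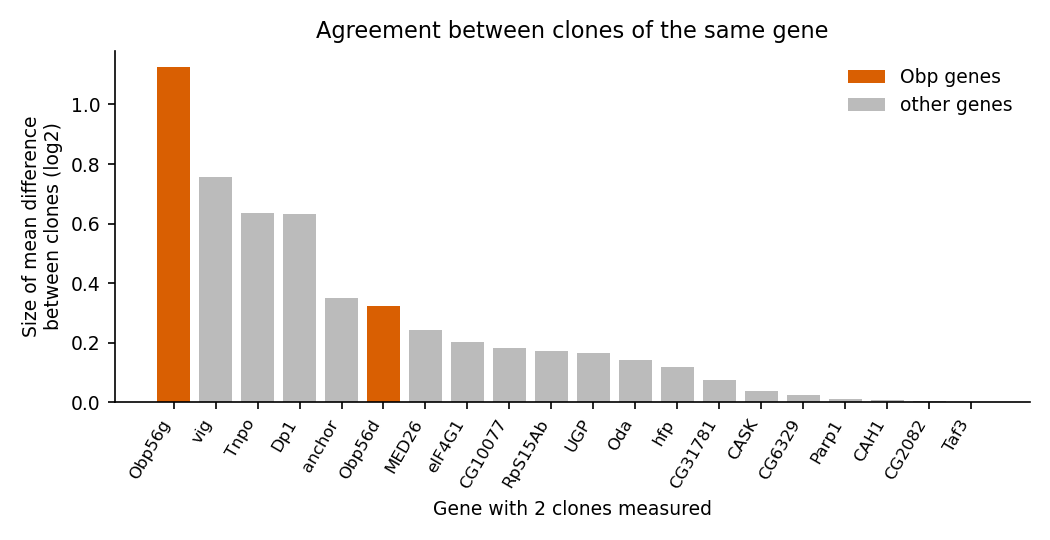
Size of the mean difference in log2 ratio between 2 clones of the same gene (y axis) for the 20 genes with such a pair, sorted by size, Obp genes in orange. Values are from the mean of both spots. Obp56g stands first at 1.12 log2 units and Obp56d sixth at 0.32. From second spots alone the Obp56g difference was 0.59.

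The other 15 Obp genes on the array missed the rule. Of these, 8 had a value on 1 or 2 arrays at most and 7 had none. Over all Obp clones on 1 or 2 arrays, which include Obp19d clone A, Obp56d clone B and Obp57c clone B, 11 of 15 values were negative, with a median of -0.48, whereas 5 of 19 values of the 6 clones of the rule were. On array 1, 7 of 8 values of these sparsely measured clones lay below the median, and on array 2 they split into 3 above and 3 below. The same tilt was present over all clones: 60.7% of values of clones on 1 or 2 arrays were below the median, against 36.9% of those of clones on 3 or 4.

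Among these genes, Obp59a, required for humidity sensing, had -3.10 and -0.75 on array 2 in its 2 clones. The lower value came from spots at -5.55 and -0.65. Obp99d had 0.56 and -1.23 on array 1 in its 2 clones. Obp99b, a gene of the male fat body of the head, had -0.70 on array 1 in 1 clone and no value in the other. Obp84a, an antennal member, had -0.37 and Obp83cd -0.68 on array 1. Obp19b had 0.03 on array 2 and Obp19a -1.47 on array 3. These values are from 1 array each and carry no test. Obp44a, a gene of brain glia, Obp8a, Obp19c, Obp47a, Obp56e, Obp56h and Obp99a had no value on any array. Clones with several symbols, of which 3 include an Obp gene, were not named, and 0 of them had a value on 3 arrays.

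Other chemosensory and related genes on a list set beforehand had few values, as did the clones of the array in general. Of 11 listed genes on the array, each with 1 clone, 3 had a value and 0 reached 3 arrays. Of all 13824 clones, 3569 had a value and 6.18% reached 3 or 4 arrays. The low counts are thus not particular to this list. lush, the odorant-binding protein needed for the response to the male pheromone cis-vaccenyl acetate, had no value. Nor had the receptor genes Or33a, Gr61a, Ir47a, Ir76a and Ir93a, the esterase gene Jhedup or the arrestin gene Arr2. Arr1, an arrestin of photoreceptors and olfactory neurons, had 0.44 on array 2 and 0.95 on array 3. Phk-3, a chemosensory protein of a different family, had -1.90 on array 1, and CheA75a had -0.25 there.

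Some clones of the tissue marker lists had values, and 0 of the tested ones passed in either reading after centring (limma). Values were found for 5 of 6 photoreceptor clones, 1 of 2 neuron clones, 1 of 4 glia clones, 4 of 10 fat body clones and 3 of 4 muscle clones. They were also found for 1 of 2 gut clones, 1 of 6 clones of testis and accessory gland and 0 of 4 hemocyte clones. Of all 13824 clones, 3569 had a value on at least 1 array. As deposited, the median of the tested clones was 0.50 for photoreceptors (4 clones), 0.45 for muscle (3 clones) and 0.08 for fat body (2 clones), against 0.36 for the Obp clones. Lists with 1 tested clone had 0.30 for glia, 0.12 for gut and -0.17 for neurons. With arrays turned, the medians were 0.11 for photoreceptors, -0.10 for muscle and -0.26 for fat body, and the values 0.12 for gut, -0.12 for glia and -0.13 for neurons, against -0.12 for the Obp clones. Their part in the Obp values was not tested.

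The clones of other genes with the most similar values were found by the root mean square difference over the same arrays, with no test. Obp56d clone C lay closest to RpL39 (0.13 log2 units over 4 arrays), a ribosomal protein, and Gs2 (0.14), a glutamine synthetase. Obp19d clone B lay closest to Eno (0.14 over 3 arrays), the glycolytic enolase, and eEF5 (0.15), a translation factor. Obp56g clone A lay closest to Nmda1 (0.10) and Vha26 (0.12), and Obp56d clone A to Gapdh1 (0.11) and CG10863 (0.12). The candidate clones numbered 311 for Obp19d clone B and 310 for each Obp56g clone. For Obp56d they numbered 91 for clone C and 27 for clone A. The closest clones to Obp56g clone B, Nasp and CG16904, were 0.42 and 0.47 away. Obp57c clone A, compared with 11 clones on its arrays, was 0.41 from CG9396 and 0.43 from Act79B.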

How the data were processed

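Per the series' design text, the authors quantified spots with GenePix Pro 6.0 and normalized ratios in Acuity 4.0. They ignored spots under 100 intensity units and under 2 times the background, then kept spots with under 3% saturated pixels, a regression R2 from 0.6 upward and a signal-to-noise ratio no lower than 3. The values deposited by the authors were taken as log2 ratios, a base inferred from their sizes of up to 9.11. Neither the base, the centring nor the direction on dye-swapped arrays is given in the sources used here.

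Duplicate spots were averaged to 13824 clones and each array's median was subtracted. The test was limma's moderated test of the mean against 0 (version 3.58.1, R 4.3.3), adjusted by Benjamini-Hochberg over the clones with at least 3 values. SE and 95% intervals are moderated over all clones. SAM was rebuilt with all sign changes of the arrays. On simulated data with the real missing values, limma recovered 85% of clones changed by 1 log2 unit, with 10 false calls among 195. Many clones were changed at once there, and every array had the same spread, whereas array 3 was wider in the data. The 85% is thus a check of the fit and no estimate of power for the Obp clones. Tables and figures used Python 3.11.15, pandas 2.3.3, numpy 2.4.6 and matplotlib 3.10.9. Symbols come from the platform annotation, and all 32 Obp clones matched RefSeq Release 6 by Entrez ID. Every Obp clone was named, with the 2 most similar clones of other genes each. Members, lists and tests were chosen with earlier results of these data known. The labels describe the pools as biological replicates, and the number of arrays limits precision.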

Additional observations from a re-analysis of the deposited data

How the results depend on the processing

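The count of clones called over the whole table was 0 in both readings. Leaving out 1 replicate gave 0 to 11 calls with arrays turned and 0 to 13 as deposited, and SAM gave 1 and 2. As deposited, 833 clones were called without centring, 3 with centring on tested clones, and 1 each from first spots, scaled arrays and a robust prior. Without centring, the deposited median was 0.91 over all tested clones, against 0.09 with it, and 1.14 over the Obp clones. With arrays turned, the Obp median without centring was 0.29, opposite in sign to -0.12, and that of all tested clones 0.40. Over leave-one-out fits the Obp median ran from -0.21 to 0.05 with arrays turned and from 0.13 to 0.41 as deposited. Of 152 Obp clone means under other settings, 134 kept their direction and side of the threshold, 6 newly passed in the same direction and 12 changed sign. The 6 are the uncentred deposited means of Obp19d clone B (1.28), Obp56d clone C (1.22), Obp56g clone A (1.13) and Obp57c clone A (1.14), and the 2 settings of Obp56g clone B given above. Part of the 152 means could not change direction. A robust prior, another minimum number of arrays, or leaving out an array where the clone had no value returns the same mean. For clones on 3 arrays, arrays 1 and 2 alone repeat a leave-one-out mean. The 134 are thus no measure of robustness. With arrays turned, the sign changed without centring for Obp19d clone B (0.25) and Obp56d clone A (0.34), and with scaled arrays for Obp56g clone B (-0.0136). Without 1 replicate, turned means ran from -0.446 to 0.175 (Obp19d clone B), -0.0986 to 0.0338 (Obp56d clone A), -0.351 to 0.00483 (Obp56d clone C), -0.481 to 0.514 (Obp56g clone B) and -0.567 to 0.0891 (Obp57c clone A). As deposited, Obp56d clone A changed sign at 0.86 without centring, where it also passed (limma adjusted p = 0.000241), 0.0498 from second spots and within -0.102 to 0.0305 without 1 replicate, and Obp56g clone B at 0.0103 without centring. The cause of these changes was not tested. The differences between the clones of Obp56g and between clones A and C of Obp56d kept their direction from either spot. On array 2, the only one their clones share, those of Obp57c (-0.39 from first and 0.15 from second spots) and Obp59a (-4.94 and 0.23) did not. Obp clones other than Obp56d clone C could not be tested on 4 arrays. Each log ratio already pairs both foods within an array, so the test of the mean against 0 uses that pairing. The arrays form 1 group, and no further pairing was made.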
